A study of Saccharomyces cerevisiae with 18 samples.

Results

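Transcript levels of ribosome biogenesis factors were compared between cultures of the budding yeast Saccharomyces cerevisiae carrying ten1-31 and wild-type (WT) cultures. The genes were 52 factors listed by systematic name: snoRNP proteins, subunits of the UTP and MPP10 complexes of the small subunit processome, and NOP, RPF, RLP and helicase assembly factors. Of these, 50 had a row among the 5143 rows of the deposited count table, and the other 2 (YOR310C and YPL093C) are not analysed here. The ten1-31 allele is a temperature-sensitive mutation of TEN1, whose protein works with Cdc13 and Stn1 at telomeres. The series title asks how these proteins bear on transcription by RNA polymerase II. The data are 3 libraries of rRNA-depleted total RNA from ten1-31 cultures and 3 from WT cultures. All 6 cultures were grown overnight at 25 °C, diluted and then kept at 34 °C for almost 5 h, so the shift to the higher temperature is shared by the genotypes. Strain background, other alleles and the number of independent isolates behind the 3 replicates are not given in the labels. Where separate cultures are not documented, the p-values measure the spread between these libraries, which may be technical in part. The other 12 of the series' 18 samples are ChIP and input libraries and were not used here.

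A ribosome is assembled in the nucleolus around a long precursor rRNA made by RNA polymerase I. Box C/D and box H/ACA snoRNPs, which are small RNAs bound by core proteins, modify that precursor and guide its cleavage. The small subunit processome, built from the UTPA, UTPB and MPP10 complexes and the U3 snoRNP, folds and cuts the part that becomes the small subunit. A separate set of factors, among them RNA helicases, Brix-domain proteins, placeholder proteins and GTPases, matures the large subunit and escorts it out of the nucleus. In budding yeast the genes for these factors form a regulon that is transcribed strongly in fast growth and turned down in stress, much as ribosomal protein genes are.

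The libraries held 10469608 to 14442999 counts, and each member had between 471 and 15502 counts in a library. The mutated gene, TEN1, was at 30.8, 29.6 and 29.8 CPM (the count relative to the TMM-scaled size of its library) in ten1-31 replicates 1 to 3, against 7.08, 9.37 and 10.1 CPM in WT replicates 1 to 3. It thus separated the libraries by label. The labels give no expected direction and counts do not show the allele, so which group is the mutant was not checked. Rows of 3 chromosomes stood apart by library. The median deviation of log2 CPM from the mean of the 6 libraries on chromosome VIII was 0.44, 0.27 and -0.18 in ten1-31 replicates 1 to 3, against -0.15, -0.18 and -0.19 in WT replicates 1 to 3. On chromosome XI it was 0.18, 0.22 and 0.25 in ten1-31, against -0.25, -0.20 and -0.21 in WT, and on chromosome IX it was 0.14, 0.10 and 0.37 in ten1-31, against -0.21, -0.20 and -0.19 in WT. On the other 13 chromosomes it lay between -0.05 and 0.07 in every library. Of the members, 7 lie on chromosome VIII, 1 on XI and 0 on IX. DNA copy number was not measured in these files, and its part in these shifts was not tested.

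Most ribosome biogenesis factors were not called different between ten1-31 and WT, which with 3 libraries each does not show that they are unchanged. By the quasi-likelihood test of edgeR (Benjamini-Hochberg adjusted p below 0.05), 9 of the 50 members fell in ten1-31 (18%, where 26.2% of all 5133 rows tested were lower), and 0 rose (24.3% of all rows were higher, and 50.5% were called in either direction). No member rose at an unadjusted p under 0.05 either, and 0 were called higher by DESeq2 and 0 by limma-voom. DESeq2 called 2633 and limma-voom 2581 of all rows in either direction. Both used the same 6 libraries as edgeR, and leaving out a library changed the calls, as given below. The members that fell were NOP56, IMP4, RLP7, NHP2, RRP9, SPB4, NOP15, YTM1 and CBF5, and these were also the 9 whose libraries did not overlap between genotypes. Groups without overlap thus made up 18% of the members, all with ten1-31 below WT, and 60.5% of all rows, 31.6% with ten1-31 below and 29.0% with ten1-31 above. The median log2 fold change of the members was -0.11, or 7.04% lower, beside a median of -0.0038 over all rows, with a range from -0.68 for NOP56 to 0.31 for NOP10. No member fell 2-fold, as 2.18% of all rows did. In bulk cultures, fewer cells in a given state and less RNA per cell cannot be told apart.

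**Figure D1:**
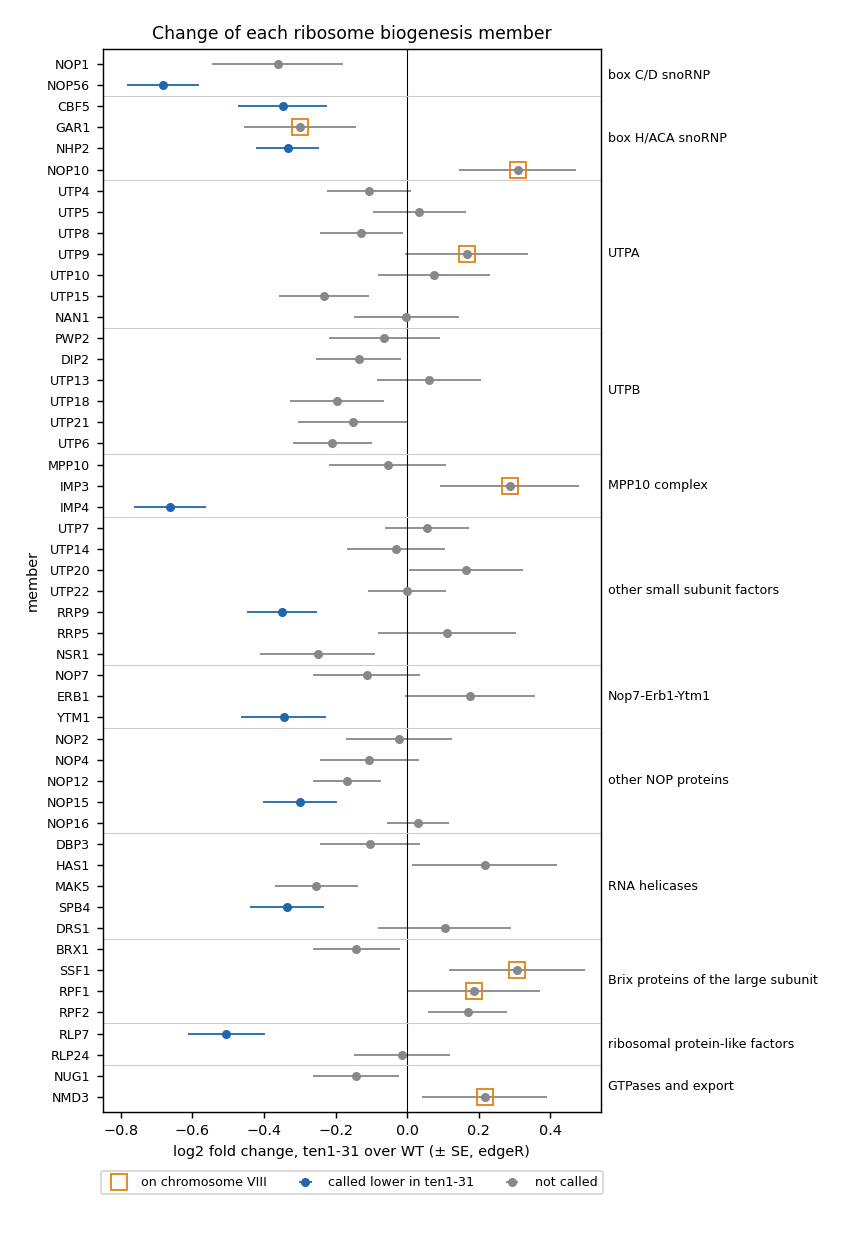
Log2 fold change of each member, ten1-31 over WT, with bars of 1 SE from edgeR; rows are members in their role groups and squares mark genes on chromosome VIII. The 9 members called lower lie between -0.68 and -0.30, and 6 of the 7 genes on chromosome VIII lie right of 0.

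For these genes the WT libraries lay farther apart than the ten1-31 libraries. WT replicate 2 was the lowest WT library for 50 of 50 members, and WT replicate 1 was the highest for 43 of them, while over all rows these shares were 34.2% and 37.3%. The median deviation of the members from the mean of the 6 libraries was -0.01, -0.05 and -0.06 (log2) in ten1-31 replicates 1 to 3, against 0.31, -0.23 and 0.05 in WT replicates 1 to 3. The ten1-31 libraries were thus close together and stood between WT replicates 1 and 2. The SD of log2 CPM within a genotype had a median over members of 0.058 in ten1-31 and 0.254 in WT, where all rows had 0.068 in ten1-31 and 0.129 in WT. It was larger in WT than in ten1-31 for 44 of 50 members, as for 74.1% of all rows. For 35 members the ten1-31 mean lay inside the range of the WT libraries, and for 41 it was above WT replicate 2.

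The calls depended on which libraries were included. Without WT replicate 2, 21 members were lower (42%, where 26.0% of all rows were) and 0 higher (24.5% of all rows were), with a median log2 fold change of -0.23. These 21 were the 9 called with all libraries and also NOP1, GAR1, UTP6, UTP15, UTP18, DIP2, NSR1, NOP7, NOP12, MAK5, BRX1 and NUG1. Without WT replicate 1, 6 were lower (30.2% of all rows were) and 7 were higher (27.7% of all rows were), with a median of 0.06. These 7 were UTP5, UTP13, UTP20, RRP5, ERB1, HAS1 and DRS1. Without WT replicate 3, 3 were lower (19.3% of all rows were) and 0 higher (17.4% of all rows were). Without ten1-31 replicate 1, 5 were lower (19.6% of all rows were) and 0 higher (18.5% of all rows were), and without ten1-31 replicate 2, 3 were lower (18.2% of all rows were) and 0 higher (17.3% of all rows were). NOP56, IMP4 and RLP7 kept an adjusted p-value under 0.05 in all 14 refits with another scaling, filter, test, block, offset or set of libraries. The other 6 calls were lost in 3 to 8 of these refits. CBF5 and YTM1 lost theirs in 8, NOP15 in 7, NHP2 and SPB4 in 4, and RRP9 in 3. General stress genes moved across the same libraries: for 15 such genes, the summed level was 6741, 6891 and 6464 CPM in ten1-31 replicates 1 to 3, against 2493, 4932 and 3689 CPM in WT replicates 1 to 3, and their part in the spread of the members was not tested.

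**Figure D2:**
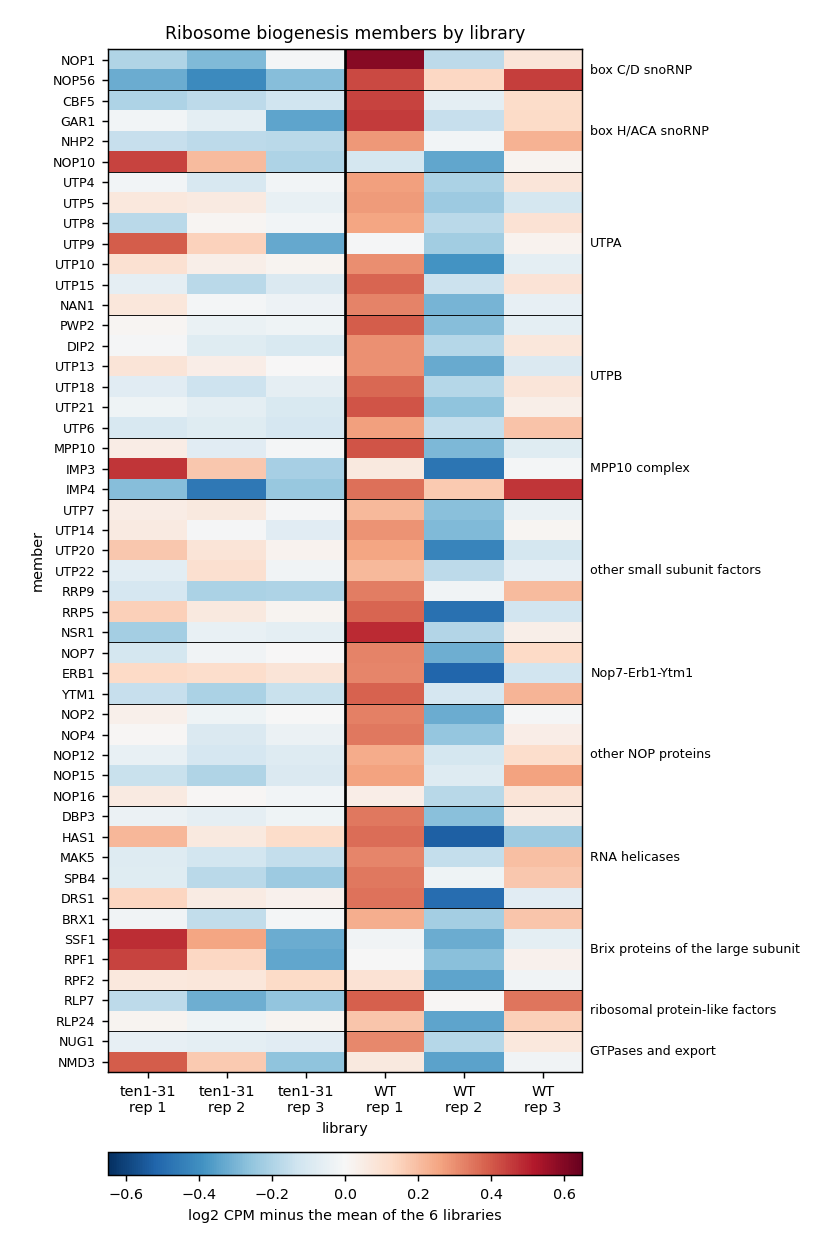
Deviation of log2 CPM from the mean of the 6 libraries, for each member (rows, in role groups) and library (columns, ten1-31 left of the line and WT right of it). The WT replicate 1 column is high (median 0.31), the WT replicate 2 column is low (median -0.23), and the ten1-31 columns have medians of -0.01 to -0.06. Genes on chromosome VIII depart from these medians in ten1-31, and others do too, such as NOP56, IMP4 and RLP7, which are low in every ten1-31 library.

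Among the snoRNP proteins the largest difference of any member was found. NOP56 (YLR197W, chromosome XII, 546097 to 547611 of assembly R64), a core protein of box C/D snoRNPs, had 504, 474 and 520 CPM in ten1-31 replicates 1 to 3, against 850, 692 and 863 CPM in WT replicates 1 to 3. Every ten1-31 library was below every WT library, and NOP56 fell by 37.7% (log2 fold change -0.68 ± 0.10 SE; edgeR, adjusted p = 0.00116). NOP1, the methyltransferase of the same particles (fibrillarin in other eukaryotes), averaged 310 ± 30.2 CPM in ten1-31 and 398 ± 110 CPM in WT (SD, n = 3 each). Its WT libraries ran from 308 to 521 CPM and overlapped the ten1-31 libraries, and it was not called (log2 fold change -0.36 ± 0.18 SE; edgeR, adjusted p = 0.134).

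The box H/ACA core consists of the pseudouridine synthase CBF5 with GAR1, NHP2 and NOP10, and its 4 transcripts did not move alike. CBF5 (YLR175W, chromosome XII, 506134 to 507585) had 400, 408 and 420 CPM in ten1-31 replicates 1 to 3, against 624, 440 and 499 CPM in WT replicates 1 to 3. The groups were separated by the gap between 420 and 440 CPM alone, and CBF5 fell by 21.4% with an adjusted p close to the threshold (log2 fold change -0.35 ± 0.12 SE; edgeR, adjusted p = 0.0477). NHP2 (YDL208W, chromosome IV, 87512 to 87982) fell by 20.7%, at 167 ± 1.63 CPM in ten1-31 and 211 ± 22.4 CPM in WT (SD, n = 3 each; edgeR, adjusted p = 0.0154). NOP10, on chromosome VIII, had 191, 162 and 123 CPM in ten1-31 replicates 1 to 3, against 130, 111 and 143 CPM in WT replicates 1 to 3. The groups overlapped at ten1-31 replicate 3, which lay below WT replicates 1 and 3, and the log2 fold change of 0.31 ± 0.16 SE did not pass (edgeR, adjusted p = 0.148). GAR1, also on chromosome VIII, did not pass either (log2 fold change -0.30 ± 0.16 SE; edgeR, adjusted p = 0.146).

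The UTPA and UTPB complexes bind the precursor rRNA first, and 0 of their 13 subunits passed the test in edgeR, DESeq2 or limma-voom, nor did any at an unadjusted p under 0.05. Of all rows, 50.5% passed in edgeR in either direction. These tests used the same 6 libraries, and leaving out a WT library changed the result. Without WT replicate 2, UTP6, UTP15, UTP18 and DIP2 were called lower (26.0% of all rows were). Without WT replicate 1, UTP5 and UTP13 were called higher (27.7% of all rows were). UTPA, whose subunits are also linked to rDNA transcription, had a median log2 fold change of -0.0032 over 7 members. UTP15 was its lowest, with 122, 113 and 119 CPM in ten1-31 replicates 1 to 3, against 165, 115 and 135 CPM in WT replicates 1 to 3 (log2 fold change -0.23 ± 0.13 SE; edgeR, adjusted p = 0.158). Its ten1-31 libraries lay around WT replicate 2 and below the other WT libraries. UTP9, on chromosome VIII, was the highest, with 280, 237 and 169 CPM in ten1-31 replicates 1 to 3, against 212, 182 and 217 CPM in WT replicates 1 to 3 (log2 fold change 0.17 ± 0.17 SE; edgeR, adjusted p = 0.446). UTP4, UTP5, UTP8, UTP10 and NAN1 had log2 fold changes from -0.13 to 0.07.

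UTPB, a complex built mainly of WD-repeat proteins, had a median log2 fold change of -0.14 over 6 members, 5 of them below 0. The lowest, UTP6, had 82.9, 84.4 and 82.7 CPM in ten1-31 replicates 1 to 3, against 107, 80.2 and 101 CPM in WT replicates 1 to 3 (log2 fold change -0.21 ± 0.11 SE; edgeR, adjusted p = 0.148). The ten1-31 libraries lay close together, and WT replicate 2 lay below all of them. UTP13, the highest, had 219, 213 and 208 CPM in ten1-31 replicates 1 to 3, against 255, 165 and 195 CPM in WT replicates 1 to 3 (log2 fold change 0.06 ± 0.15 SE; edgeR, adjusted p = 0.753). PWP2, DIP2, UTP18 and UTP21 had log2 fold changes from -0.20 to -0.06.

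In the MPP10 complex, which binds the U3 snoRNA paired to the precursor, the 3 subunits differed from each other. IMP4 (YNL075W, chromosome XIV, 485607 to 486479), a Brix-domain protein, had 71.4, 62.5 and 72.8 CPM in ten1-31 replicates 1 to 3, against 111, 97.2 and 119 CPM in WT replicates 1 to 3. All 3 ten1-31 libraries lay well below the lowest WT library, and IMP4 fell by 36.8% (log2 fold change -0.66 ± 0.10 SE; edgeR, adjusted p = 0.00134). IMP3, on chromosome VIII, had 78.5, 64.3 and 49.0 CPM in ten1-31 replicates 1 to 3, against 59.6, 40.9 and 56.5 CPM in WT replicates 1 to 3, and was not called (log2 fold change 0.29 ± 0.19 SE; edgeR, adjusted p = 0.253). MPP10 itself averaged 187 ± 8.20 CPM in ten1-31 and 194 ± 49.8 CPM in WT (SD, n = 3 each; edgeR, adjusted p = 0.805).

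Of the 7 other small subunit factors, 1 fell, where 26.2% of all rows were lower. RRP9 (YPR137W, chromosome XVI, 802359 to 804080), a protein specific to the U3 snoRNP, had 164, 153 and 154 CPM in ten1-31 replicates 1 to 3, against 222, 174 and 204 CPM in WT replicates 1 to 3. The groups did not overlap, and RRP9 fell by 21.5% (log2 fold change -0.35 ± 0.10 SE; edgeR, adjusted p = 0.0197). UTP20, a very long protein of the processome, had 1069, 1002 and 963 CPM in ten1-31 replicates 1 to 3, against 1132, 703 and 875 CPM in WT replicates 1 to 3, and was not called (log2 fold change 0.16 ± 0.16 SE; edgeR, adjusted p = 0.419). RRP5, which acts in the maturation of both subunits, showed the same wide WT spread, with 876 ± 43.0 CPM in ten1-31 and 810 ± 246 CPM in WT (SD, n = 3 each; edgeR, adjusted p = 0.654). The nucleolin-like NSR1, and UTP7, UTP14 and UTP22, had log2 fold changes from -0.25 to 0.05.

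Large subunit factors showed 4 falls among 21 members, where 26.2% of all rows were lower. In the Nop7-Erb1-Ytm1 complex, which acts on early large subunit precursors, YTM1 (YOR272W, chromosome XV, 832813 to 834195) had 140, 135 and 141 CPM in ten1-31 replicates 1 to 3, against 203, 144 and 181 CPM in WT replicates 1 to 3. WT replicate 2 lay just above the highest ten1-31 library, and YTM1 fell by 21.3% (log2 fold change -0.35 ± 0.12 SE; edgeR, adjusted p = 0.0430). Its partner ERB1 had 333, 329 and 323 CPM in ten1-31 replicates 1 to 3, inside the WT range of 379, 213 and 279 CPM in replicates 1 to 3 (log2 fold change 0.18 ± 0.18 SE; edgeR, adjusted p = 0.449). NOP7 averaged 358 ± 14.6 CPM in ten1-31 and 388 ± 84.4 CPM in WT (SD, n = 3 each; edgeR, adjusted p = 0.550).

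Among the other NOP proteins, NOP15 (YNL110C, chromosome XIV, 417826 to 418488), an RNA-binding protein of large subunit precursors, had 132, 127 and 136 CPM in ten1-31 replicates 1 to 3, against 174, 137 and 175 CPM in WT replicates 1 to 3. The highest ten1-31 library and the lowest WT library all but touched, and NOP15 fell by 18.8% (log2 fold change -0.30 ± 0.10 SE; edgeR, adjusted p = 0.0413). NOP16 had 98.1, 94.8 and 93.1 CPM in ten1-31 replicates 1 to 3, against 97.0, 83.2 and 99.8 CPM in WT replicates 1 to 3 (log2 fold change 0.03 ± 0.09 SE; edgeR, adjusted p = 0.791). NOP2, an rRNA methyltransferase, and NOP4 and NOP12 had log2 fold changes from -0.17 to -0.02 and were not called.

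The DEAD-box helicases remodel RNA within the precursors, and SPB4 (YFL002C, chromosome VI, 145114 to 146934) fell by 20.8%. It had 93.1, 86.9 and 83.5 CPM in ten1-31 replicates 1 to 3, against 125, 96.5 and 111 CPM in WT replicates 1 to 3 (log2 fold change -0.34 ± 0.10 SE; edgeR, adjusted p = 0.0279). HAS1, which acts on both subunits, had 246, 222 and 231 CPM in ten1-31 replicates 1 to 3, against 273, 147 and 181 CPM in WT replicates 1 to 3. WT replicate 1 was above and the other WT libraries below every ten1-31 library, and HAS1 was not called (log2 fold change 0.22 ± 0.20 SE; edgeR, adjusted p = 0.399). DBP3, MAK5 and DRS1 had log2 fold changes from -0.25 to 0.10.

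Of the 4 Brix-domain proteins of the large subunit, 0 passed in edgeR (50.5% of all rows did), DESeq2 or limma-voom or at an unadjusted p under 0.05. Of these 4, 3 had a log2 fold change above 0. BRX1 had 145, 132 and 146 CPM in ten1-31 replicates 1 to 3, against 174, 127 and 167 CPM in WT replicates 1 to 3 (log2 fold change -0.14 ± 0.12 SE; edgeR, adjusted p = 0.354). With WT replicate 2 left out, BRX1 was called lower (edgeR, adjusted p = 0.0210). SSF1 and RPF1 lie on chromosome VIII and RPF2, which helps to bring in the 5S rRNA particle, lies on XI. SSF1 had 230, 197 and 132 CPM in ten1-31 replicates 1 to 3, against 162, 132 and 158 CPM in WT replicates 1 to 3 (log2 fold change 0.31 ± 0.19 SE; edgeR, adjusted p = 0.212). Its near-identical paralog SSF2, on chromosome IV, had 80.6, 72.0 and 82.3 CPM in ten1-31 replicates 1 to 3, against 78.6, 72.5 and 81.8 CPM in WT replicates 1 to 3 (log2 fold change 0.01 ± 0.08 SE; edgeR, adjusted p = 0.915). Whether reads could be assigned to the right copy of this pair is uncertain.

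RLP7 and RLP24 resemble ribosomal proteins and act during large subunit assembly. RLP7 (YNL002C, chromosome XIV, 626174 to 627142) had 159, 144 and 150 CPM in ten1-31 replicates 1 to 3, against 235, 180 and 228 CPM in WT replicates 1 to 3. The groups did not overlap, and RLP7 fell by 29.5% (log2 fold change -0.51 ± 0.11 SE; edgeR, adjusted p = 0.00629). Of the ribosomal protein genes it resembles, RPL7A fell (116, 109 and 121 CPM in ten1-31 replicates 1 to 3, against 176, 163 and 179 CPM in WT replicates 1 to 3; edgeR, adjusted p = 0.000557). RPL7B rose (220, 207 and 184 CPM in ten1-31 replicates 1 to 3, against 132, 133 and 136 CPM in WT replicates 1 to 3; edgeR, adjusted p = 0.000782). As these copies are close to each other in sequence, the division of reads between them is uncertain.

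RLP24, the placeholder that Rpl24 later replaces, averaged 165 ± 2.93 CPM in ten1-31 and 167 ± 32.0 CPM in WT (SD, n = 3 each) and was not called (log2 fold change -0.02 ± 0.13 SE; edgeR, adjusted p = 0.933). RPL24A fell, with 840 CPM in ten1-31 and 1214 CPM in WT on average (log2 fold change -0.53 ± 0.08 SE; edgeR, adjusted p = 0.00162), and RPL24B fell, with 746 CPM in ten1-31 and 907 CPM in WT (log2 fold change -0.28 ± 0.08 SE; edgeR, adjusted p = 0.0246). The call of RPL24B was lost in 6 of 14 refits (adjusted p up to 0.102), among them those without WT replicate 3 and without each of the ten1-31 libraries. As for RPL7A and RPL7B, the division of reads between RPL24A and RPL24B is uncertain. NUG1, a GTPase of large subunit export, had 207, 205 and 203 CPM in ten1-31 replicates 1 to 3, against 266, 188 and 225 CPM in WT replicates 1 to 3 (log2 fold change -0.14 ± 0.12 SE; edgeR, adjusted p = 0.344). The export adaptor NMD3, on chromosome VIII, was not called (log2 fold change 0.22 ± 0.17 SE; edgeR, adjusted p = 0.328).

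**Figure D3:**
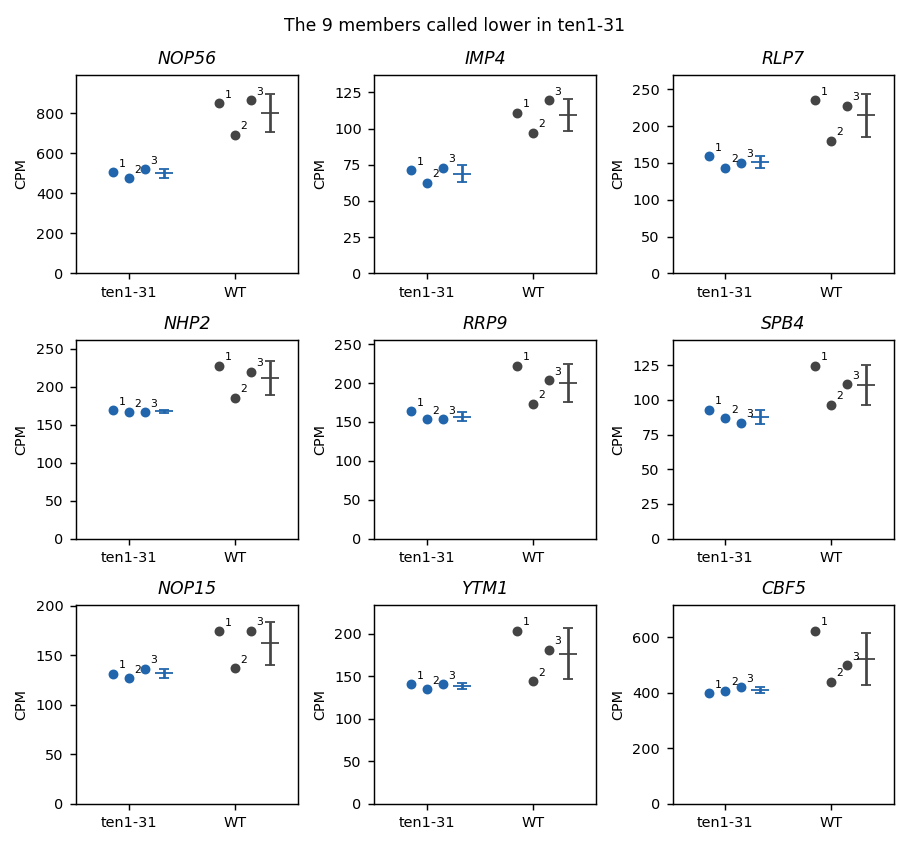
CPM in each library of the 9 members called lower, with ten1-31 left and WT right, replicate numbers beside the points, and mean ± SD (n = 3) beside them; the axes start at 0. For NOP56, IMP4 and RLP7 the gap between genotypes is wide. For NOP15, YTM1, SPB4 and CBF5, WT replicate 2 lies close to the ten1-31 libraries.

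The members on chromosome VIII shared a pattern over the ten1-31 libraries. In ten1-31 all 7 were highest in replicate 1 and lowest in replicate 3. In ten1-31 replicates 1 and 2, 6 of the 7 exceeded every WT library, and none did in ten1-31 replicate 3, where the median of all rows of that chromosome was at the WT level. GAR1 (chromosome VIII, 282681 to 283298) was the gene that exceeded them in neither, with 89.6, 86.8 and 71.6 CPM in ten1-31 replicates 1 to 3, against 124, 81.7 and 98.8 CPM in WT replicates 1 to 3. The median log2 fold change of the 7 was 0.22, against -0.11 for the 43 members elsewhere.

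With ten1-31 replicate 3 left out, 4 members were lower (22.6% of all rows were) and 2 higher (21.0% of all rows were), which were NOP10 and SSF1 (log2 fold changes 0.45 and 0.49; edgeR, adjusted p = 0.0268 and 0.0171). With each chromosome centred on its own median in every library, the log2 fold changes turned negative for NOP10 (-0.07), UTP9 (-0.22), IMP3 (-0.09), SSF1 (-0.08), RPF1 (-0.20) and NMD3 (-0.16) on chromosome VIII and for RPF2 (-0.27) on XI. In that fit GAR1 was called lower (log2 fold change -0.65 ± 0.14 SE; edgeR, adjusted p = 0.00657) and the other 7 genes just named were not called. Over all members, 7 were then lower (24.5% of all rows) and 0 higher (24.2% of all rows). NHP2, NOP15 and YTM1, which were called lower without centring, were not called in that fit (edgeR, adjusted p = 0.0756 for NOP15 and 0.0946 for YTM1).

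**Figure D4:**
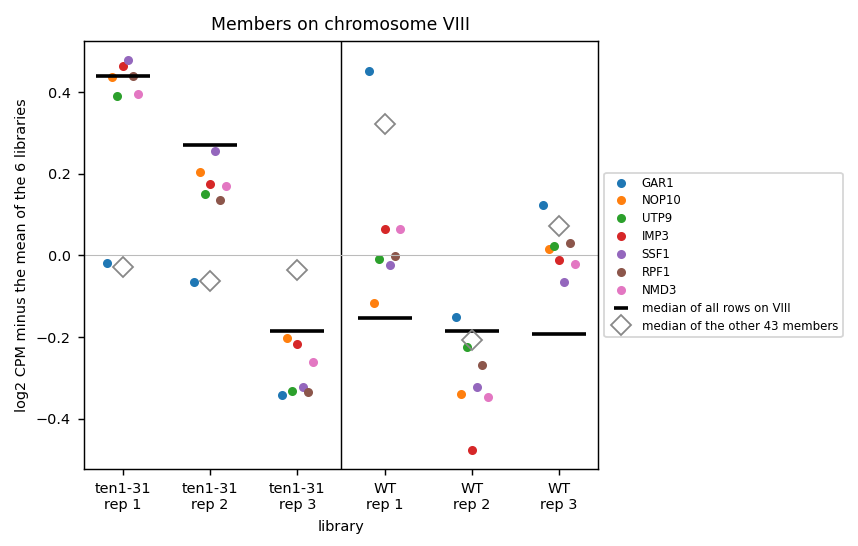
Deviation of log2 CPM from the mean of the 6 libraries for the 7 members on chromosome VIII (points), the median of all rows of that chromosome (black bars) and the median of the other 43 members (diamonds), by library with ten1-31 left of the line. Apart from GAR1, the genes lie near the chromosome median of 0.44 in ten1-31 replicate 1, between 0 and the chromosome median of 0.27 in replicate 2, and below 0 with it in replicate 3.

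Levels were compared between genes per kilobase of gene length, from start to end and with any intron included. The members had a median of 130 CPM per kb in ten1-31 and 124 CPM per kb in WT, against 57.9 in ten1-31 and 57.2 in WT over all rows. Transcripts of snoRNP proteins had the highest levels, with medians of 322 CPM per kb in ten1-31 and 426 CPM per kb in WT over 6 genes. Small subunit factors had 99.5 in ten1-31 and 109 CPM per kb in WT, and large subunit factors 137 in ten1-31 and 136 CPM per kb in WT. NOP10 was the highest, at 896 CPM per kb in ten1-31 and 723 CPM per kb in WT, and SPB4 the lowest, at 48.2 in ten1-31 and 60.9 CPM per kb in WT. The order of the members was nearly the same in the genotypes (Spearman's rho 0.92 over 50 genes that share their libraries and are no replicates). IMP4 changed its place most among those that fell, standing 45th of 50 in ten1-31 and 25th in WT. The members that fell had a median gene length of 1383 bases and those not called 1782 bases, and the log2 fold change had a Spearman rho of 0.20 with length across the 50 genes.

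Other genes of the pathway were counted for comparison. Of 97 further biogenesis factors, 15 fell and 12 rose, with a median log2 fold change of -0.04, where 26.2% of all rows were lower and 24.3% higher. Without WT replicate 1, 13 of the 97 were lower (30.2% of all rows were) and 27 higher (27.7% of all rows were), with a median of 0.07. Without WT replicate 2, 30 were lower (26.0% of all rows were) and 7 higher (24.5% of all rows were), with a median of -0.16. With any of the other 4 libraries left out, 7 to 10 were lower (18.2% to 22.6% of all rows were) and 4 to 8 higher (17.3% to 21.0% of all rows were). The falls included the large subunit factors TIF6 (log2 fold change -0.52; edgeR, adjusted p = 0.00146) and NOG2 (-0.46; edgeR, adjusted p = 0.00146) and the nuclease gene FCF1 (-0.47; edgeR, adjusted p = 0.00451). Of the 12 that rose with all libraries included, 10 lie on chromosome IX or XI, and of the 27 higher without WT replicate 1, 12 lie on chromosome VIII, IX or XI. Among the 12, URB1 (0.62; edgeR, adjusted p = 0.00997) and LTV1 (0.50; edgeR, adjusted p = 0.00632) lie on XI, and NOP6, on chromosome IV, and the helicase gene ECM16, on XIII, lie elsewhere. With chromosomes centred on their medians, 4 of the 97 were higher (24.2% of all rows were) and 17 lower (24.5% of all rows were). Genes listed for the nuclear exosome, which trims rRNA precursors, fell in 4 of 13 cases, where 26.2% of all rows were lower. In edgeR, 0 of the 13 rose (24.3% of all rows were higher), and 0 did at an unadjusted p under 0.05.

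RNA polymerase I genes included 3 falls among 10, where 26.2% of all rows were lower. These were RPA49, RPA34 and RPC40 (log2 fold changes -0.40, -0.36 and -0.36; edgeR, adjusted p = 0.0101, 0.0273 and 0.0176). RRN3, the initiation factor of this polymerase, rose and lies on chromosome XI, with 138, 140 and 145 CPM in ten1-31 replicates 1 to 3, against 90.5, 73.7 and 82.6 CPM in WT replicates 1 to 3 (log2 fold change 0.78 ± 0.09 SE; edgeR, adjusted p = 0.000386). With chromosomes centred on their medians its log2 fold change was 0.34 ± 0.09 SE, and it was still called higher (edgeR, adjusted p = 0.0141). The 134 ribosomal protein genes had 90 falls (26.2% of all rows were lower) and 3 rises (24.3% of all rows were higher), with a median log2 fold change of -0.36. Their median deviation was -0.16, -0.21 and -0.18 in ten1-31 replicates 1 to 3, against 0.24, 0.05 and 0.25 in WT replicates 1 to 3, so that the median of WT replicate 2 was above those of the ten1-31 libraries for ribosomal proteins and below them for the members. The difference between these lists was not tested.

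**Figure D5:**
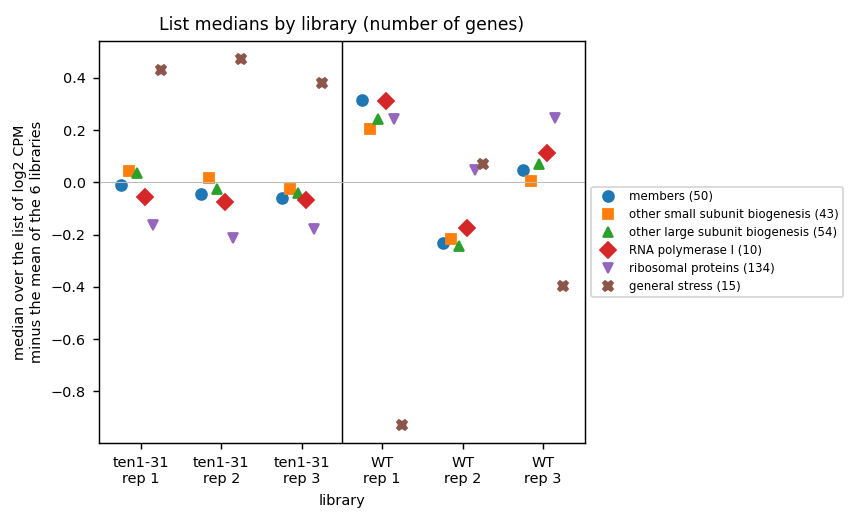
Median over each gene list of the deviation of log2 CPM from the mean of the 6 libraries, by library with ten1-31 left of the line; the legend gives the number of genes. Members, other biogenesis factors and RNA polymerase I genes are highest in WT replicate 1 and lowest in WT replicate 2, while the general stress genes have their lowest median (-0.93) in WT replicate 1.

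Of 9 regulators listed, 6 had a row. DOT6, a repressor that binds promoters of biogenesis genes, fell, with 143, 150 and 143 CPM in ten1-31 replicates 1 to 3, against 208, 181 and 180 CPM in WT replicates 1 to 3 (log2 fold change -0.39 ± 0.08 SE; edgeR, adjusted p = 0.00503). HMO1, a high-mobility-group protein found on rDNA and ribosomal protein promoters, fell as well, with 140, 147 and 150 CPM in ten1-31 replicates 1 to 3, against 209, 179 and 181 CPM in WT replicates 1 to 3 (log2 fold change -0.38 ± 0.08 SE; edgeR, adjusted p = 0.00632). For DOT6 and HMO1 every ten1-31 library lay below every WT library. CRF1, a corepressor of ribosomal protein genes, fell at a low level, with 4.14, 3.90 and 1.99 CPM in ten1-31 replicates 1 to 3, against 5.77, 8.85 and 7.03 CPM in WT replicates 1 to 3 (log2 fold change -1.12 ± 0.29 SE; edgeR, adjusted p = 0.0134).

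SCH9, a kinase downstream of TORC1 that promotes ribosome synthesis, rose and lies on chromosome VIII. It had 341, 291 and 219 CPM in ten1-31 replicates 1 to 3, against 224, 166 and 163 CPM in WT replicates 1 to 3 (log2 fold change 0.62 ± 0.18 SE; edgeR, adjusted p = 0.0230). Like the members on that chromosome it was lowest in ten1-31 replicate 3, and with chromosomes centred on their medians its call was lost (edgeR, adjusted p = 0.102). The call was also lost without ten1-31 replicate 1, ten1-31 replicate 2, WT replicate 2 or WT replicate 3. STB3, a repressor of biogenesis genes, and FHL1, an activator of ribosomal protein genes, had log2 fold changes of 0.10 ± 0.08 SE and -0.14 ± 0.09 SE and were not called (edgeR, adjusted p = 0.329 and 0.257).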

How the data were processed

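RNA was measured in 3 ten1-31 and 3 WT libraries (34 °C), grouped by the labels. The unit is whole-number counts per gene in 1 deposited table; the submitters' processing notes name FastQC, cutadapt, Trimmomatic, TopHat2, Bowtie2 and featureCounts and the build R64 (sacCer3), with no roles. The strand setting, the annotation and any filter on rows are not given in the sources used here, so reads of overlapping antisense transcripts may be included. Of 5143 rows, 5112 matched the RefSeq table of assembly R64, which gave coordinates and gene lengths (introns included; all 50 members' lengths are multiples of 3, as 96.3% of protein-coding genes' are); 8 rows share 4 repeated names and were kept separate and unnamed. Library totals were 12556775, 10469608 and 13561078 counts in ten1-31 replicates 1 to 3 and 14442999, 11635219 and 13361863 in WT replicates 1 to 3.

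Counts were tested over all rows together with edgeR 4.0.16 (R 4.3.3): filterByExpr (minimum count 10, minimum total 15), which left 5133 rows, TMM scaling, the quasi-likelihood test with genotype as its only term, and Benjamini-Hochberg adjustment at 0.05. CPM use TMM-scaled library sizes, and log2 CPM a prior count of 2. Standard errors of log2 fold changes were computed from the fold change and the F statistic. The procedure was tested on simulated data, where it recovered 195 of the 200 rows given a 2-fold change among 5132, with 2.99% of its calls false. That simulation held no change smaller than 2-fold, no shift of whole chromosomes and far fewer changed rows than were called here. Its rates therefore do not carry over to the members, whose changes were all smaller.

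Alternatives were other scalings, no filter, an adjusted p of 0.01, DESeq2 1.42.0, limma-voom (limma 3.58.1), a replicate block, chromosome medians as offsets, and leaving out each library. No 2 replicates of a genotype agreed within sampling noise (chi-square per degree of freedom at least 5.33). The deviations of same-numbered libraries correlated at 0.20, 0.21 and 0.09, against -0.23 to 0.05 for the other pairs. The labels do not say whether replicate numbers pair the samples, and the main test used no pairing. The members and lists were chosen with earlier results of these data known, so no test was made of a list. The rule for genes given by library named the members with the lowest and the highest log2 fold change of each role group (1 in a group of 2), any member called against the majority of its group, the 3 members with the smallest p-value, the regulators, the paralogs and TEN1. Further genes, such as NHP2, NOP1, MPP10, those of chromosome VIII and RRN3, were named after their values were seen. Promoter sequences were not used here.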

Additional observations from a re-analysis of the deposited data

How the results depend on the processing

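All rows called numbered 2591, 1660 at an adjusted p of 0.01 and 1824 to 2974 with a library left out. Members called lower numbered 9, 3 at an adjusted p of 0.01, 5 when scaled by library size alone (19.8% of all rows were then lower) and 3 to 21 with a library left out. Members called higher numbered 0, and 0 to 7 with a library left out. The members' median log2 fold change of -0.11 ran from -0.23 to 0.057 with a library left out, with its sign turned without WT replicate 1; the cause was not tested. It was -0.15 with upper-quartile scaling and -0.02 with library size only, where the median of all rows was -0.05 and 0.08, against -0.0038 as reported. With a replicate block 2630 rows were called, 2475 of them also called without it, and the same 9 members were lower; each library correlated best with its own number, a hint from the data and not from the design. With members on chromosomes VIII, IX and XI left out, chosen after seeing the data, 9 of 42 were lower.

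Single members, and the paralog SSF2, changed sign as follows. Upper-quartile scaling gave log2 fold changes of -0.019 for NOP16 and -0.037 for SSF2. Chromosome medians as offsets gave -0.089 for IMP3, -0.066 for NOP10, -0.081 for SSF1 and -0.22 for UTP9. Leaving out a library gave -0.046 to 0.080 for NOP16, -0.037 to 0.068 for SSF2, -0.014 to 0.33 for UTP9, -0.0048 to 0.41 for ERB1 and -0.074 to 0.25 for UTP13. In all, 27 of 50 members changed sign in at least 1 of 14 refits.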
